A study of Mus musculus with 2 samples.

Results

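The mouse prolactin family and the pregnancy-specific glycoprotein (Psg) family were described here in chromatin of 11 day embryos. A gene was a member if it was protein-coding in the GENCODE M21 annotation and its symbol was Prl, Prl followed by a digit, a letter and digits, or Psg followed by digits. This rule gave 39 of the 21755 protein-coding genes of chromosomes 1 to 19 and X, of which 26 were Prl genes on chromosome 13 and 13 were Psg genes on chromosome 7. The rule used names only and no measured value.

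DNase-seq was made from embryo tissue of mouse strain B6NCrl at 11 days, as 1 group of 2 biological replicates. Each replicate was a pool of male and female embryos, both were recorded as healthy, and they had separate biosample entries but a common donor entry. No treatment or mutation is recorded in the labels. Nor do the labels say whether placenta, decidua or extra-embryonic membranes were kept with the embryos. DNase-seq finds stretches of open chromatin, where DNase I can cut. Each replicate has a list of 150 bp peaks, each with a score from 1 to 150 whose scale is not stated, and a list of hotspots, which are wider regions of enriched cutting with a value that is the −log10 of a q value and stops at 100. The lists hold 204697 and 231103 peaks and 179603 and 197152 hotspots in replicates 1 and 2. A score ranks a peak within its own list only. In tissue of many cell types, a low score from few cells cannot be told apart from a weakly open site in many cells. With 1 group of 2 libraries there was no comparison between conditions to test, and the counts below are descriptions, with the same count over all genes or peaks beside those on promoter peaks and shared peaks.

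Prolactin is the pituitary hormone of lactation, made by lactotrophs under the control of the factor POU1F1. In rodents the single ancestral gene has multiplied into a cluster whose other members are expressed in the placenta and decidua: placental lactogens of trophoblast giant cells, which act through the prolactin receptor, proliferins, and hormones of spongiotrophoblast and decidual cells. Psg genes encode secreted immunoglobulin-like glycoproteins of the carcinoembryonic antigen (Ceacam) family, which rodents and primates express in trophoblast.

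With 2 exceptions, the promoters of these genes carried no peak in either replicate. A promoter was taken as the 500 bp to either side of any annotated transcription start site (TSS). Prl3b1, which encodes placental lactogen II, was the only Prl gene of 26 with a promoter peak in both replicates, and Psg16 was the only Psg gene of 13. Over all protein-coding genes the share was 70.3%. The same 2 members were also the only ones with a promoter peak in either replicate, against 73.0% of all genes, and the only ones with a promoter hotspot in both replicates, against 70.6% of all genes. The other 37 members had no promoter peak in either list. They include Prl itself, Prl3d1 (placental lactogen I), Prl2c2 (proliferin), Prl7d1 (proliferin-related protein) and Prl8a2 (decidual prolactin-related protein).

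The Prl3b1 peak was at the bottom of both lists. It lay at chr13:27242316-27242465 (mm10) in replicate 1, with a score of 15, which 0.77% of the peaks of that list fell below, and in replicate 2 it had a score of 24, which 4.09% fell below. The hotspots there had values of 1.64 and 2.61, close to the lowest value in the list of replicate 1, 1.30. The midpoint of the peak lay 40 bp upstream of the start of transcript Prl3b1-201, at 27242430, and the peak reached into exon 1 of that transcript. The annotation gives a second transcript, Prl3b1-202, that starts upstream at 27241847, and there the peak covers part of exon 2. Genes with a promoter peak in both replicates had a median best score of 125 and 130 over all 15296 such genes, and of 82 and 92 over the 461 of them in the CpG decile of Prl3b1, so Prl3b1 was far below both. The RefSeq promoter of Prl3b1 (GRCm38, chr13:27242180-27242479, plus strand, 250 bases before and 50 after the start) is shown because it is the only promoter of the prolactin family with a peak. The bases inside the replicate 1 peak are in capitals, and they hold 2 matches to the nuclear receptor letters AGGTCA, both read on the other strand.
Prl3b1: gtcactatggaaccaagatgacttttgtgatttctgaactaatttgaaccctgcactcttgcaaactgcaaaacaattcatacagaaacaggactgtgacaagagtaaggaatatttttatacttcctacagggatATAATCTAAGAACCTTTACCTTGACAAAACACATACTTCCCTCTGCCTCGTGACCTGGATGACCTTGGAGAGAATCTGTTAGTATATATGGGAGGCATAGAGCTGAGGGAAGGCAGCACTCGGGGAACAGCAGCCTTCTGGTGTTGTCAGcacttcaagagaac

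Psg16 was of another kind. This gene, whose transcripts are also known from brain, had a promoter peak at chr7:17073916-17074065 with scores of 69 and 81 in replicates 1 and 2, which 75.3% and 78.7% of the peaks of each list fell below. Both hotspots there were at the ceiling of 100. The peak midpoint lay 50 bp upstream of the start at 17074040, in a promoter with a CpG ratio (observed over expected) of 0.41, the highest of all members. The 1893 genes of the same CpG decile with a promoter peak in both replicates had median scores of 107 and 115. Psg16 also has a start inside the gene at 17087934, and a second peak lay 3596 bp downstream of it, with scores of 30 and 28. That peak fell in intron 2 of transcripts Psg16-201 and Psg16-202.

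Just outside the promoter window the order of members was as follows. Psg19 had a peak whose edge was 716 bp from its start in both replicates, with scores of 25 and 17 and hotspot values of 3.24 and 3.38. Prl8a2 had a peak 2428 bp away in replicate 1 and 2568 bp away in replicate 2, with scores of 35 and 34 and hotspot values of 6 and 100. These peaks overlapped only at their edges. Hotspot values at peaks among these genes were at most 6 or exactly 100, so the size of that step is not known. All other members were farther from a peak in both replicates, except that Prl3b1 and Psg16 had one at their start. The median distance from a Prl gene to its nearest peak was 22.4 kb in replicate 1 and 21.4 kb in replicate 2, and from a Psg gene 11.6 kb and 10.6 kb. Over 50 kb from any peak lay 9 Prl genes in replicate 1 and 5 in replicate 2, and 1 Psg gene, Psg23, in both. These distances were not computed for all protein-coding genes, so whether they are unusual was not tested. The greatest distances were 80.8 kb for Prl2c3 in replicate 1 and 98.0 kb for Prl5a1 in replicate 2. Prl lay 11179 bp and 11159 bp from its nearest peak.

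The promoter of Prl is shown because it is the best known of the family and had no peak. Its RefSeq sequence (GRCm38, chr13:27057320-27057619, plus strand) has a TATA box 26 bases before the start, in capitals with its flanking bases. It also has matches to the POU1F1 letters ATGNATA on both strands, which are not marked. The promoter is fully unique in the genome, in that all its 36-base words occur once.
Prl: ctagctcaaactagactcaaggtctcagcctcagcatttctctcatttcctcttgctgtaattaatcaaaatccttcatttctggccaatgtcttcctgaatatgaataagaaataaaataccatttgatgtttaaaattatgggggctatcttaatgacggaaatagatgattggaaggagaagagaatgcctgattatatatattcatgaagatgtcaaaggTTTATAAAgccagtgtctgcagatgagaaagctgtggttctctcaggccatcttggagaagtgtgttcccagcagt

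The promoters of both families were poor in CpG. The median CpG ratio was 0.16 in Prl promoters, 0.067 in Psg promoters and 0.56 over all protein-coding genes, and the median GC content was 36.5%, 48.7% and 54.8%. When all genes were ranked by CpG ratio into deciles, 37 members fell into the lowest 3, where 1435 of 6525 genes, or 22.0%, had a promoter peak in both replicates. Of those 37 members, only Prl3b1 had one. In the first decile 17 members, among them 12 Psg genes, had no promoter peak, where 8.97% of all genes had one. In the second, 1 of 13 members had one, where 21.2% of all genes did, and in the third 0 of 7, where 35.8% did. Prl5a1 was the sole member of the fourth decile and had none, and Psg16 was the sole member of the fifth, where 87.0% of all genes had one. Psg29 had the lowest ratio, with no CpG in its promoter.

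**Figure D1:**
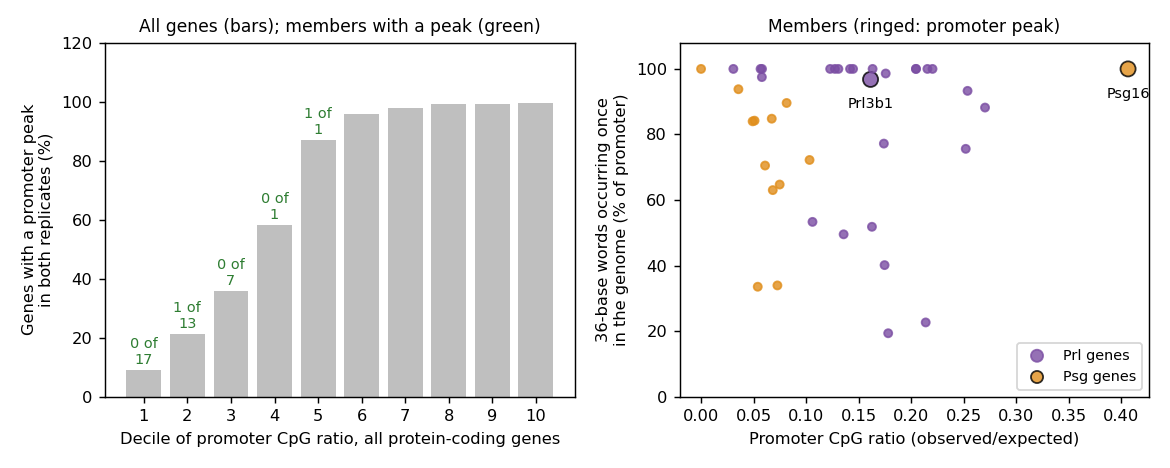
Left, the share of all protein-coding genes with a promoter peak in both replicates (y axis, percent) in each decile of promoter CpG ratio (x axis), with the number of Prl and Psg genes that had one printed in green above the bars. Right, promoter CpG ratio (x axis) against the percent of 36-base words that occur once in the genome (y axis) for 26 Prl genes (purple) and 13 Psg genes (orange). The share over all genes climbs from 8.97% to 99.4%, 37 of 39 members sit in the first 3 deciles, and Psg16, ringed, stands apart at 0.41.

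Members copied from one another can also be hard to read by sequencing, since a read that matches several copies equally may be dropped. Read length and the handling of such reads were not given in the sources used here. As a proxy, the share of 36-base words of each promoter that occur once in the genome was counted. It was below 80% in 8 Prl and 6 Psg promoters, and none of these 14 had a peak. Over all genes with so little unique sequence, 432 of 2349, or 18.4%, had one. The lowest shares were 19.4% at Prl2c2 and 22.7% at Prl2c3 among Prl genes, and 33.6% at Psg23 among Psg genes. With 75-base words, 5 Prl and 2 Psg promoters stayed below 80%. Of the other 25 members, 2 had a promoter peak, where 14864 of all 19406 genes with at least 80% unique words had one. Of the 23 members in the lowest 3 CpG deciles with at least 80% unique words, 1 had one, where all such genes had 27.4%.

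The pair Prl3d2 and Prl3d3, further genes of the placental lactogen I group, shows how close the copies can be. Their RefSeq promoters (GRCm38, chr13:27121445-27121744 and chr13:27156544-27156843, plus strand) were 97.0% identical, with 1 mismatch in the alignment and 8 bases at the ends without a partner. Bases that differ are in capitals. Only 51.8% and 49.6% of the 36-base words at these promoters were unique, and neither had a peak.
Prl3d2: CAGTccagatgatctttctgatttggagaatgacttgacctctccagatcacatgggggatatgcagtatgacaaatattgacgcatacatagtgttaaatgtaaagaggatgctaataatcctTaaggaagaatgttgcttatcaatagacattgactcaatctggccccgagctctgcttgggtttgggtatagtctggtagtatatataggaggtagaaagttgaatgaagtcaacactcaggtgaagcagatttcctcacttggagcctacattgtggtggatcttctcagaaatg
Prl3d3: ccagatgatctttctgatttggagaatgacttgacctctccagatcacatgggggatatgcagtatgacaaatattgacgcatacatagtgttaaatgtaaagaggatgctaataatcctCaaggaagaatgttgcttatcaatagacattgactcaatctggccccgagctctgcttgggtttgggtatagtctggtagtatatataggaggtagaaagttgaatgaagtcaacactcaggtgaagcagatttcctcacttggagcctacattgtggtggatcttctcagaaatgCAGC

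Promoters were on the whole more alike among Psg than among Prl genes. RefSeq promoters were matched for 22 of 26 Prl and 10 of 13 Psg genes. The 231 Prl pairs had a median identity of 51.2%, with a range from 40.2% to 97.0%, and the 45 Psg pairs a median of 76.5%, from 46.6% to 96.4%. All Psg pairs below 57.2% held Psg20. Its RefSeq start, 18685992, lies downstream of another annotated start at 18686185, so the stretch compared may be shifted. Prl2c3 was 95.3% identical to Prl2c5 and 95.0% to Prl7d1, and Psg21 was 96.4% identical to Psg23. Because the promoters share descent, a motif present in many of them is not many independent events. GATA letters (AGATAA or TGATAA, either strand) were in 13 of 22 Prl and 9 of 10 Psg promoters, against 17.6% of the 16433 promoters matched. AP-1 letters (TGANTCA) were in 9 Prl and 3 Psg promoters, against 8.17%, and TEAD letters (ACATTCC or GCATTCC) in 7 and 0, against 7.39%. POU1F1 letters were in 6 Prl promoters and 0 Psg promoters, against 8.34%. The box TATAAA was in 5 Prl and 0 Psg promoters, against 14.3%. It lay just before the start in Prl (26 bases), Prl3a1 (29 bases) and Prl6a1. Only these exact letters were searched. Related letters such as TATATA, present before the start in the Prl3d2 and Prl3d3 promoters shown above, were not counted. None of the 32 matched members held the Sp/KLF letters GGGCGG, which 51.3% of all promoters had. The remaining letters searched gave the following counts for Prl and Psg promoters: Ets (CCGGAA) 3 and 0 against 21.6%, E-box (CAGCTG) 4 and 4 against 17.7%, nuclear receptor letters 6 and 2 against 16.4%, and TFAP2 (GCCNNNGGC) 1 and 0 against 22.9%. For the CTCF core (AGGGGGC) and GCM (ATGCGGG) they were 0 and 0, against 15.1% and 2.00%. A match of letters is a description and no evidence of binding.

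The space between the genes was sparse in peaks too, but less so for Psg. Members were grouped into clusters wherever neighbours lay within 1 Mb. The main Prl cluster, from Prl to Prl5a1, spans chr13:27057570-28151611 and holds 23 Prl genes and no other protein-coding gene. It had 13 peaks in replicate 1 and 18 in replicate 2, or 1.42 ± 0.32 per 100 kb (SD, n = 2), and 9 replicate 1 peaks were shared, meaning that they overlapped a replicate 2 peak, or 0.82 per 100 kb. The whole of chromosomes 1 to 19 and X had 6.35 shared peaks per 100 kb. Of 2326 consecutive windows of the same length along the genome, 8.60% had a lower shared density, and the median window had 5.78. The 500 kb on either side of the cluster held 4.0 and 8.2 shared peaks per 100 kb. Its nearest neighbours, Hdgfl1 and Gm11361, lie 287 kb before and 106 kb after it and had no promoter peak either.

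The 3 proliferin genes Prl2c3, Prl2c2 and Prl2c5 lie apart at chr13:12790816-13191923, and no peak there was found in both replicates. Each replicate had 2 peaks in these 401 kb, at different places, and none was shared. They had scores of 31 (nearest to Prl2c2) and 8 (Prl2c5) in replicate 1 and of 30 (Prl2c3) and 37 (Prl2c2) in replicate 2. The positions nearest to Prl2c2, 71.8 kb and 65.5 kb downstream of a start of it, were copies of one another, with 87.6% identity over 121 aligned columns, so that each replicate had a peak at a different copy. The flanks held 5.4 and 4.8 shared peaks per 100 kb, and the neighbouring genes Ero1lb and Gpr137b had promoter peaks in both replicates. In this cluster 37.5% of the 36-base words were unique, the lowest of the 4 clusters, against 85.1% over the genome, and the part of this in the absence of shared peaks was not tested.

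The Psg genes also fell into 2 groups. Psg16 and Psg29, with Ceacam3 between them, span chr7:17074040-17215760, where both replicates had 3 peaks, all shared. The main Psg cluster, from Psg18 to Psg17, spans chr7:18345422-18821607 and holds 11 Psg genes and no other protein-coding gene. Each replicate had 19 peaks there, or 3.99 per 100 kb (SD 0, n = 2), and 16 replicate 1 peaks were shared, or 3.36 per 100 kb. That is lower than the genome value but common: 32.1% of 5329 windows of this length had a lower density. Between the 2 groups lie 1130 kb with 8 other protein-coding genes, most of them Ceacam genes and none with a promoter peak, and 0.27 shared peaks per 100 kb. Just beyond Psg17 the density was 22.0 per 100 kb over 500 kb, and before Psg16 it was 19.6. Hif3a, 11.6 kb before Psg16, had promoter peaks with scores of 123 and 124. The main Psg cluster had 56.7% unique 36-base words and the stretch between the groups 56.9%, and with 75-base words the values were 79.96% and 71.3%. Per unique base, the shared density was 5.93 per 100 kb in the main Psg cluster, 1.09 in the main Prl cluster and 7.46 over the genome.

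**Figure D2:**
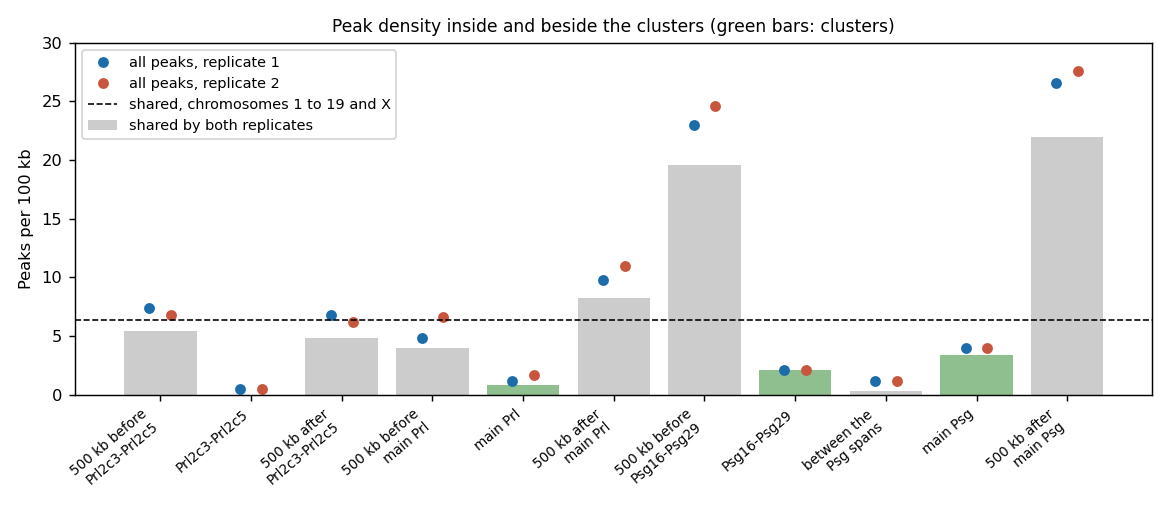
Peaks per 100 kb (y axis) in each cluster (green bars), beside it and between the Psg groups (grey bars). Bars give peaks shared by both replicates, blue and red points all peaks of replicates 1 and 2, and the dashed line the shared density of 6.35 over chromosomes 1 to 19 and X. The Prl2c3 to Prl2c5 bar is at 0, the main Prl bar at 0.82 and the main Psg bar at 3.36, with flanks of 19.6 and 22.0 around the Psg genes.

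The peaks of the clusters were found in both replicates only in part. Of all replicate 1 peaks 79.5% were shared, and of all replicate 2 peaks 70.2%. In the main Psg cluster 16 of 19 replicate 1 peaks and 14 of 19 replicate 2 peaks were shared, and in the main Prl cluster 9 of 13 and 9 of 18.  The difference between the clusters was not tested. Overlapping peaks of both lists were then merged into 49 positions in all 4 clusters, of which 25 were found in both replicates, 9 in replicate 1 only and 15 in replicate 2 only. Scores at shared positions were low, with medians of 27 and 35 in the main Prl cluster and 33 and 35 in the main Psg cluster. Shared peaks of the whole lists, promoter peaks included, had medians of 51 and 61. Most of the cluster positions lie away from promoters. Shared peaks over 1 kb from any protein-coding TSS had a median of 46 in replicate 1, and their median in replicate 2 was not computed. Replicate 2 had the higher score at 22 of the 25 positions, as it did at 84.0% of all shared peaks. In the main Prl cluster, positions of replicate 1 alone scored 14 to 21 and those of replicate 2 alone 19 to 40.

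**Figure D3:**
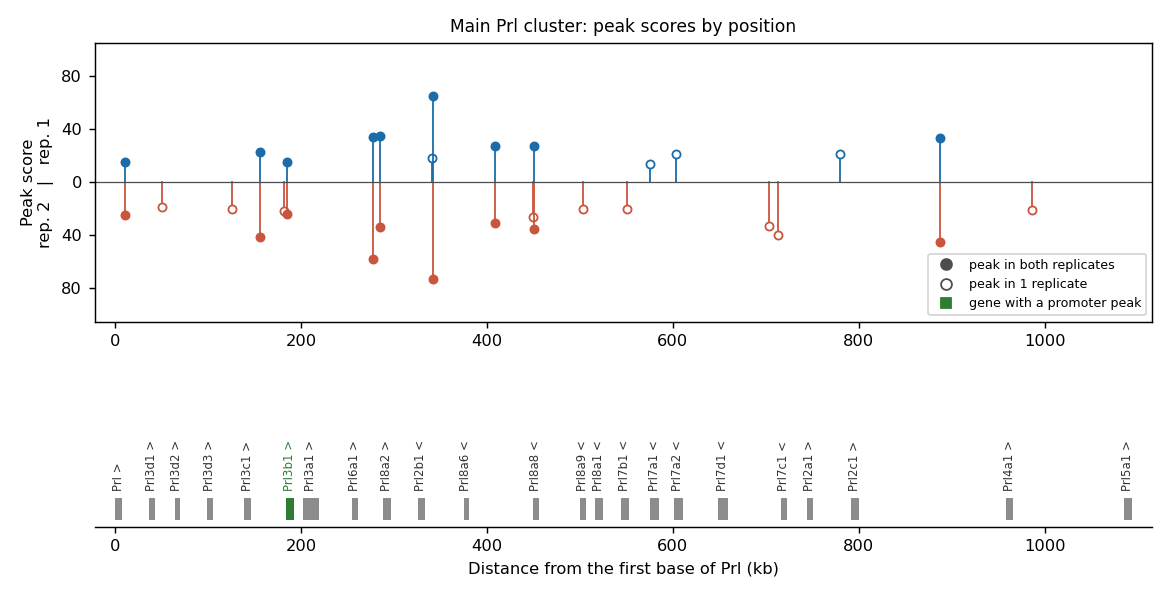
Peak scores (y axis, replicate 1 upward in blue and replicate 2 downward in red) along the main Prl cluster (x axis, kb from the first base of Prl), over the 23 genes with their direction. Filled points are positions found in both replicates. The 9 shared positions lie apart from the gene starts except at Prl3b1 (green), and the highest has scores of 65 and 73.

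The highest-scoring site of the prolactin family lay outside its genes. At chr13:27399436-27399585, 8.66 kb upstream of Prl2b1, the scores were 65 and 73, which 72.2% and 73.3% of the peaks of each list fell below, and both hotspots were at 100. It is shown first below (plus strand), with an E-box in capitals. The next by mean rank in this cluster lay upstream of Prl8a2 by 10.5 kb, at chr13:27335096-27335245, with scores of 34 and 58 and hotspot values of 2.38 and 100. It is shown second, with a TATA box and a POU1F1 match in capitals. Of the 9 shared positions of this cluster, 2 held TATAAA, and 1 each held the POU1F1, E-box and GATA letters. Of all 125442 shared peaks over 1 kb from any protein-coding TSS, 4.98%, 4.31%, 18.5% and 9.31% did. With so few positions, whether these counts are unusual was not tested.
Upstream of Prl2b1: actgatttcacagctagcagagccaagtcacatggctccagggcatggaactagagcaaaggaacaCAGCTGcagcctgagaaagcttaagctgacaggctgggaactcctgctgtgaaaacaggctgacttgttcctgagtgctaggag
Upstream of Prl8a2: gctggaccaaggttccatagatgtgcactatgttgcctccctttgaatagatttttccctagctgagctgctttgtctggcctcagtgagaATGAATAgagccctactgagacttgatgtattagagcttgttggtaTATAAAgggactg

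The peak nearest to Prl8a2, described above, had scores of 35 and 34. A peak at chr13:27945176-27945325, 71.0 kb upstream of Prl4a1, had scores of 33 and 45 and both hotspots at 100, and it held GATA letters. Within Prl8a8 a peak at chr13:27507816-27507965 in intron 5 of transcript Prl8a8-201 had scores of 27 and 35. The rest were 14.7 kb downstream of the start of Prl3c1 (23 and 41), 27.9 kb upstream of Prl8a6 (27 and 31) and 11.3 kb downstream of the start of Prl (15 and 25). None of the 9 was mostly repeat sequence, and 6 had no CpG, where 4.30% and 12.3% of all 125442 shared peaks over 1 kb from any protein-coding TSS were so. Found in 1 replicate only were peaks inside Prl8a8, Prl8a9, Prl7b1 and Prl7a2, with scores of 26, 20, 20 and 21. The one in Prl8a8 lay in replicate 2, in intron 5 of transcript Prl8a8-201. The other positions of 1 replicate had Prl3d1, Prl3c1, Prl3b1, Prl2b1, Prl7a1, Prl7c1, Prl2c1 or Prl4a1 as their nearest member.

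**Figure D4:**
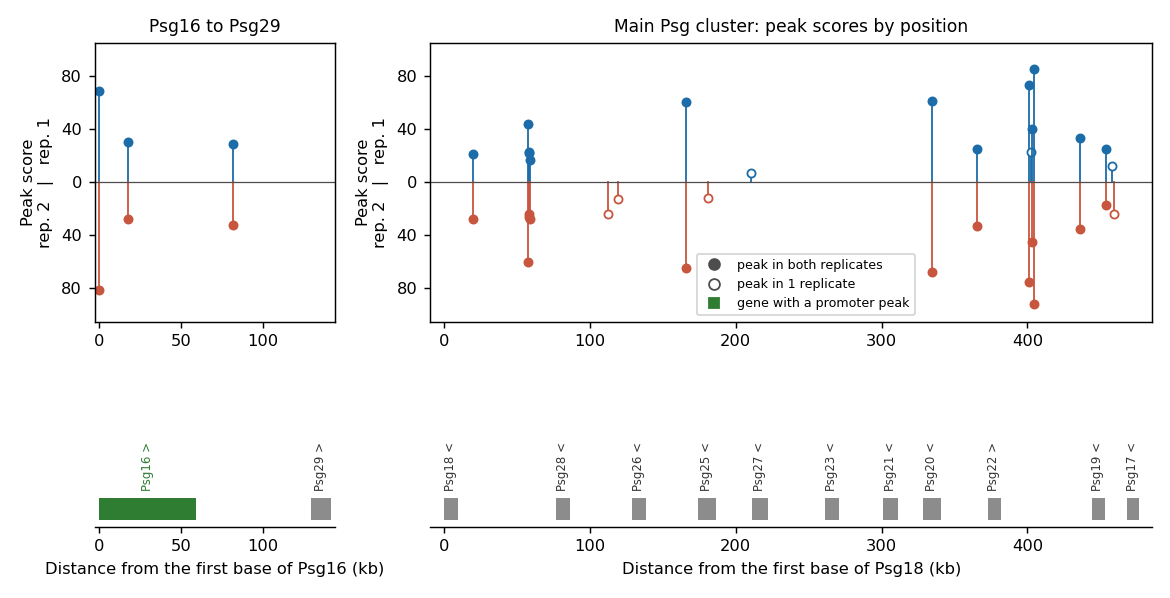
Peak scores (y axis, replicate 1 upward in blue and replicate 2 downward in red) along the Psg16 to Psg29 cluster (left) and the main Psg cluster (right); the x axes give kb from the first base of Psg16 and of Psg18. Filled points are positions found in both replicates. The highest point, with 85 and 92, lies between Psg22 and Psg19, and only Psg16 (green) has a peak at its promoter.

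The main Psg cluster held the highest-scoring position of all 49. At chr7:18749956-18750105, between Psg22 and Psg19 and 31.9 kb downstream of the Psg22 start, the scores were 85 and 92, which 84.8% and 84.7% of the peaks of each list fell below. A second position of this group, 28.6 kb downstream of the same start, had scores of 73 and 75, and the next, 30.6 kb downstream, had 40 and 45. In intron 5 of transcript Psg20-201 (intron 4 of Psg20-202) a peak at chr7:18679936-18680085 had scores of 61 and 68. A peak at chr7:18511576-18511725, 20.6 kb downstream of the Psg25 start, had 60 and 65 and lay in the processed pseudogene Gm4880, with a GC content of 64%. Near Psg28, 29.0 kb downstream of its start, a position had 44 and 60, and 3 lower-scoring ones lay between 27.9 and 28.4 kb. Of the 13 shared positions, 7 had hotspots at 100 in both replicates. The 7 positions of 1 replicate had scores from 7 to 24 and lay nearest to Psg26, Psg25, Psg27, Psg22 and Psg19. In the smaller cluster, the shared peak that was not in Psg16 lay in an intron of Ceacam3, 47.6 kb upstream of Psg29, with scores of 29 and 32.

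Several of these Psg peaks were copies of one another. All 1176 pairs of the 49 positions were aligned on both strands, and 5 pairs were at least 80% identical over at least 75 aligned columns. The highest-scoring position, beyond Psg22, and the peak inside Psg20 made 1 such pair. They matched at 127 of 141 columns (90.1%), with the Psg20 copy on the minus strand. They are shown with the 14 differing bases in capitals, chr7:18749965-18750105 (plus) and chr7:18679944-18680084 (minus).
Beyond Psg22: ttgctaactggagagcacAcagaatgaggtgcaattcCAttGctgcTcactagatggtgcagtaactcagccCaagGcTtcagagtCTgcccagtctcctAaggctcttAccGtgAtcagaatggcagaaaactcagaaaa
Psg20: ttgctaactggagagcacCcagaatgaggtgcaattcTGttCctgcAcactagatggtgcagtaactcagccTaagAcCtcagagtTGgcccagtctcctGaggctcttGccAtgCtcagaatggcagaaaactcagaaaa

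The main Psg cluster was then searched for further copies of each shared peak by local alignment with the same limits. The peak beyond Psg22 had 8 other copies, each in an intron of a different Psg gene: the one in Psg20, which has a peak, and 7 without a peak or a hotspot in either replicate, in intron 4 of Psg18, Psg21, Psg23, Psg25, Psg26, Psg27 and Psg28. The copies without a peak were 80.4% to 89.0% identical to the peak. At Psg27, Psg25 and Psg18 the copy was nearly all unique sequence (100%, 99.1% and 92.9% of its 36-base words), as were the copies with a peak (100% each). At Psg28 and Psg26 the unique share was 35.4% and 28.3%, and at Psg21 and Psg23 it was 0%, so that every 36-base word there also occurs elsewhere. The longest runs that both copies with a peak share are 25 bases long, and there are 2 of them. From the first, inside the peaks, each copy without a peak differs at 2 to 5 bases. The other is the end of the aligned stretch, where the copies at Psg25 and Psg27 hold it without a difference and the other 5 copies without a peak differ at 2 or 3 bases. The first run is shown for all 9 copies, with differing bases in capitals, because it allows copies with and without a peak to be compared base by base. The runs were chosen after the values were seen, and the copies with a peak match them by construction.
Beyond Psg22: cactagatggtgcagtaactcagcc
Psg20: cactagatggtgcagtaactcagcc
Psg18: cCctagatggCAAagtTactcagcc
Psg21: cactagatggtgAagtaacATagcc
Psg23: cactagatggtgAagtaacATagcc
Psg25: caGtagatggtgAagtaactcagcc
Psg26: cCctagatggCAAagtaactcagcc
Psg27: cactagatggtgAagtaaTtTagcA
Psg28: cCctagatggCAAagtaactcagcc

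**Figure D5:**
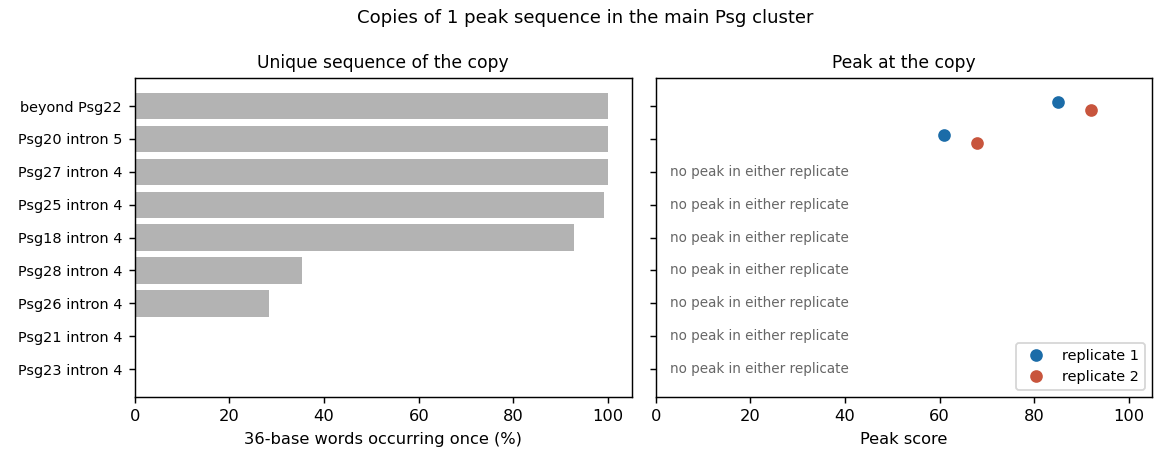
The 9 copies of 1 peak sequence in the main Psg cluster (y axis). Left, the percent of 36-base words of the copy that occur once in the genome; right, the peak score in replicate 1 (blue) and replicate 2 (red). The copies beyond Psg22 and in Psg20 have scores of 85 and 92 and of 61 and 68, and the other 7 have no peak, 3 of them with over 92% unique words.

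The peak upstream of Psg19 had 8 copies upstream of other Psg genes, 7 of them between 1717 and 1790 bp from the start and 1, at Psg18, 858 bp from it. They were 80.1% to 86.3% identical, had at least 82.8% unique words, and none had a peak or hotspot in either replicate. The positions 7.54 kb upstream of Psg22 and 17.0 kb downstream of the Psg19 start were copies on opposite strands, 97.9% identical over 94 columns. Here both had a peak in both replicates, with scores of 25 and 33 and of 33 and 35. Only 67.8% and 73.0% of their 36-base words were unique. Whether reads of 1 copy were placed at the other was not tested. The position near Psg28 with 44 and 60 had a copy near Psg26, 87.1% identical and fully unique, with a peak in replicate 2 only and a score of 13. In all, 11 of 13 shared positions of the main Psg cluster had 52 copies, counted once for each peak searched, of which 46 had no peak in either replicate. One peak near Psg18, of which 96.7% was repeat sequence, accounted for 16 of them. In the main Prl cluster only 1 of 9 shared positions had a copy: the peak in intron 5 of Prl8a8 matched intron 5 of Prl8a6 at 81.4% identity, where 99.1% of the words were unique and no peak was found.

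Genes of the receptors and signalling partners mostly had promoter peaks, as did most genes in the CpG deciles where they mostly lay. All 11 genes listed for prolactin signalling had a promoter peak in both replicates, where 70.3% of all protein-coding genes did. Among them Prlr, the prolactin receptor, had scores of 60 and 77, Jak2, its kinase, 140 and 143, and Stat5a, the factor it activates, 110 and 119. Of the 11, Elf5 and Stat5a lay in CpG decile 3 and Cish in 4, where 35.8% and 58.2% of all genes had a promoter peak. The rest lay in deciles 5 to 10, where 87.0% to 99.4% did. All 6 genes listed as partners of Psg proteins had one too, against the same 70.3%, including Cd9, the receptor of Psg17, with 107 and 112. These 6 lay in CpG deciles 6 to 8, where 96.0% to 99.2% of all genes had one. Pou1f1, the pituitary regulator of Prl, had a promoter peak in replicate 2 only, with a score of 23. Gh, the growth hormone gene of the same superfamily, had none. Of 15 Ceacam genes, the relatives of Psg, 1 had one in both replicates, Ceacam1, and Ceacam10 had one in replicate 2 only. All 15 lay in the lowest 3 CpG deciles, where 22.0% of all genes had one in both.

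Markers of the cells that make these hormones were mixed. Of 12 trophoblast regulators, 10 had a promoter peak in both replicates, against 70.3% of all protein-coding genes. Among them were Hand1, which drives giant cell formation, with scores of 66 and 71, and Tfap2c with 103 and 128. Of the 10, Elf5 lay in CpG decile 3 and Hand1 and Esrrb in 4, where 35.8% and 58.2% of all genes had one. The rest of the 10 lay in deciles 5 to 8, where 87.0% to 99.2% did. Cdx2 had one in replicate 1 only and Gcm1 in neither. Of the genes listed for placental cells, those with one in both replicates included Flt1 and Pcdh12 of spongiotrophoblast and glycogen cells, Mmp9 and Bhlhe40 of giant cells, and Slc16a1 and Slc16a3 of syncytiotrophoblast. Those with none included Tpbpa and Tpbpb of spongiotrophoblast, Ctsq and Ctsj of giant cells, and Syna and Synb of syncytiotrophoblast. Tpbpa, Tpbpb and Synb lay in CpG decile 1, Ctsj in 2, Ctsq in 3 and Syna in 4. In these deciles 8.97%, 21.2%, 35.8% and 58.2% of all genes had one in both replicates. Of the placental cell genes named with a peak, Pcdh12 and Mmp9 lay in decile 3. Flt1, Bhlhe40, Slc16a1 and Slc16a3 lay in deciles 5 to 10, where 87.0% to 99.4% of all genes had one. Against 70.3% of all protein-coding genes, the counts were 3 of 5 for the spongiotrophoblast list, 3 of 5 for giant cells, 2 of 5 for syncytiotrophoblast, 5 of 7 for decidua, 1 of 6 for uterine natural killer cells (Eomes only) and 8 of 8 for the embryo proper. These lists differ in promoter CpG and were not compared at equal CpG. The killer cell genes without a peak lay in deciles 1 to 3, and the genes of the embryo proper in deciles 2 to 10. The decidua list holds Prl8a2, itself a Prl gene. Hand1 and Eomes are also expressed in the embryo itself, and the other genes of these lists were not checked for this. Whether placental cells were in the tissue was not tested.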

How the data were processed

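DNase-seq peaks and hotspots were used as the authors deposited them, 1 list of each per replicate, made from the filtered mm10 alignments of that replicate per the file headers and accompanying text. Peaks carry a deposited score with no stated scale, and hotspots a deposited −log10 q value. The aligner, caller and read filters were not given in the sources used here, and read depth is unknown.

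Peaks, hotspots and genes (GENCODE M21, GRCm38) were joined by overlap of at least 1 bp, with Python 3.11.15, pandas 2.3.3, numpy 2.4.6 and numba 0.67.0, on chromosomes 1 to 19 and X. CpG, repeat (lower-case bases) and uniqueness measures used 500 bp to either side of the 5'-most TSS. Unique words were counted on both strands of the assembled genome. Promoter sequences came from RefSeq. Sequences were aligned with Biopython 1.88 (match 1, mismatch -1, gap opening -3, extension -0.5). The overlap and word counts were tested on simulated data.

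Named genes were members with a promoter peak or hotspot, Prl, cluster ends, members nearest to peaks, neighbouring genes and members with extreme CpG or unique share. All shared positions of the clusters were described, since no cluster had more than 20. The alignment of peaks with one another, the search for copies, their genes and the genes named from lists were added after the values were seen. The members and lists were chosen with earlier results of these data known. Some results of the lists are not reported here. Alternatives were other windows, score limits, overlaps and spans, and each replicate alone.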

Additional observations from a re-analysis of the deposited data

How the results depend on the processing

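Of the alternatives for the number of Prl and of Psg genes with a promoter peak or hotspot in both replicates, most left each count at 1. Prl3b1 was lost with the better-scoring 50% of peaks (0 Prl genes) and with hotspot values of at least 10 (0 Prl genes). With a window of 2500 bp, 2 Prl genes had a promoter hotspot, 2 Psg genes a promoter peak and 2 Psg genes a promoter hotspot; the share of all genes with a promoter peak was then higher too. With either replicate alone the counts stayed at 1. A restriction to promoters with at least 80% unique words, added after the data were seen, left 1 Prl and 1 Psg gene with a promoter peak.

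The shared density of the main Prl cluster, 0.82 per 100 kb, fell to 0.091 with the better-scoring 50% of peaks, and that of the main Psg cluster, 3.36, to 0.84, where the genome had 3.61. In the main Psg cluster it was 3.64 with 50 kb added at both ends and 5.93 per unique base. The peaks of 1 replicate alone gave 1.19 to 1.65 per 100 kb in the main Prl cluster and 3.99 in the main Psg cluster. Both replicates of the main Psg cluster had the same number of peaks, so any change there exceeds their spread. No paired analysis was possible because there is only 1 group. Unknown depth limits what the absence of a peak shows, and a site open in few cells of an embryo can go undetected.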
